A study of Homo sapiens with 15 samples.

Results

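The heat shock and DNAJ chaperone genes were described in 15 RNA-seq libraries from ML1 and U937, a pair of human acute myeloid leukemia cell lines. Members were chosen by name: every gene symbol beginning with HSPA, HSPB, HSPD, HSPE, HSPH, HSP90, DNAJA, DNAJB or DNAJC and followed by a digit (for HSP90, by A or B), plus HSF1, BAG3 and SERPINH1. The rule took 88 of the 26485 genes counted and used no measured value. It also took antisense RNAs of these genes, such as DNAJC9-AS1 and DNAJC27-AS1, and pseudogenes such as HSPA7, HSP90B2P and HSP90AB4P. By annotation these encode no chaperone, and the counts of members below include those tested. Both lines were treated for 24 h with diluent or with 10 nM prexasertib, an inhibitor of the checkpoint kinase CHK1. A further U937 group received 10 nM prexasertib together with 350 nM LSN622666, a compound given only by code name and called the combination here. Every culture, those with diluent included, also received 5 µM Q-VD-OPh, a pan-caspase inhibitor. Each of the 5 groups held 3 libraries, ML1 had no combination group, and no group received LSN622666 alone. The labels do not say whether the libraries of a group came from separate cultures, so p-values measure only the spread between these libraries, which may be technical.

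Heat shock proteins are molecular chaperones that bind unfolded proteins and help them fold, assemble or be degraded. HSP70 proteins (HSPA genes) bind and release clients in an ATP cycle that J proteins (DNAJ genes) start and that exchange factors such as BAG3 and HSPH1 reset. HSP90 proteins take over later folding steps, HSP60 with its lid HSP10 folds proteins in mitochondria, and small heat shock proteins (HSPB genes) hold clients without ATP. The cytosolic stress-inducible genes are switched on by the transcription factor HSF1 through heat shock elements. The chaperones of the endoplasmic reticulum (ER) are switched on by the unfolded protein response through ER stress elements.

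A pair of promoter windows is shown because each carries the motif of 1 of these responses in a gene that rose in ML1. The 250 bases before the start of the gene were taken from RefSeq on GRCh38.p14 for the 71 members that matched by symbol, and capitals mark the motif. The HSPA6 window (chr1:161524290-161524539, plus strand) holds a heat shock element, and the HSPA5 window (chr9:125241344-125241593, minus strand, printed 5′ to 3′ along the gene) holds an ER stress element.
HSPA6: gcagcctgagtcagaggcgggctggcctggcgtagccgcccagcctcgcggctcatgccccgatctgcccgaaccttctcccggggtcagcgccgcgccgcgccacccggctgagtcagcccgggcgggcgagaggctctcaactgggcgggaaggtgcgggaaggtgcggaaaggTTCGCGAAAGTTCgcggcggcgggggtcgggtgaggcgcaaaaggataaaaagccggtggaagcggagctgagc
HSPA5: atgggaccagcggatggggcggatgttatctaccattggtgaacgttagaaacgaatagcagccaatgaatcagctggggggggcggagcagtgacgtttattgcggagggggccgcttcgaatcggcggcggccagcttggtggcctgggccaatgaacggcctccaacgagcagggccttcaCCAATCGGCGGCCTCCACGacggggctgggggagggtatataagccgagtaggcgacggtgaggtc
The heat shock element was searched as GAANNTTCNNGAA on both strands and was found in 4 of the 71 member windows (5.63%), against 0.441% of all 35116 windows of the same length. The matches were TTCGCGAAAGTTC in HSPA6, TTCCAGAAGTTTC in SERPINH1, GAACCTTCGCGAA in DNAJB6, and GAAAGTTCCAGAA and TTCTGGAAGGTTC in HSPA8. The ER stress element was searched as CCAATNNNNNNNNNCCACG on both strands and was found in 2 members (2.82%), against 0.074% of all windows. HSPA5 held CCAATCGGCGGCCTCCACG, and HSP90B1 held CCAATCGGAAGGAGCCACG and, on the other strand, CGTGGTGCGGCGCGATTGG. The AP-1 letters TGANTCA were found in 5 members (7.04%), HSPA6, BAG3, DNAJC15, HSPB3 and HSPA5, against 6.57% of all windows, and did not overlap the other motifs. The printed pair was picked for its rise, and matches and rises did not go together throughout. HSPA8, SERPINH1 and DNAJB6 hold a heat shock element but were not called higher in ML1. HSPA1A, HSPA1B and BAG3 were called higher there without a match to it. A match is a description of letters, and a window without one says nothing about the factor.

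Library totals ran from 49011222 to 87301014 counts, and the correlation between libraries of the same group, on log2 CPM, was between 0.982 and 0.9937. CPM is a gene's share of the library total after library scaling, and comparisons between genes use CPM per kilobase of exon. Of the 88 members, 78 were measured well enough to test and 10 were not. Those 10 had at most 45 counts over all 15 libraries, and 4 of them had none. Each comparison was fitted over all 17243 tested genes with edgeR's quasi-likelihood test, and a gene was called at a Benjamini-Hochberg adjusted p under 0.05. Log2 fold changes are given with their standard error. Myeloid markers were present in every group, with PTPRC, the leukocyte surface protein CD45, at 79.1 to 89 CPM in ML1 with diluent. T cell markers summed to at most 1.02 CPM and erythroid markers to at most 0.319 CPM in any library. In ML1 the summed level of 10 myeloid markers was 2130 to 2410 CPM with diluent and 5220 to 6890 CPM with prexasertib, and in U937 it stayed between 904 and 1270 CPM over the 3 groups. The lysozyme gene LYZ made up much of the ML1 gap, averaging 514 and 3630 CPM. MPO and CEBPA went the other way in ML1, averaging 948 and 508 CPM and 351 and 329 CPM, while the other markers averaged higher with prexasertib. Fibroblast and endothelial markers summed to 44.6 to 55.3 CPM and 217 to 297 CPM in the same ML1 groups, nearly all of it PECAM1, which myeloid cells also express. B cell markers reached at most 16.5 CPM and epithelial markers at most 4.58 CPM, with EPCAM listed at 0. The part of these shifts in the ML1 results was not tested.

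With diluent, HSP90AB1, a cytosolic HSP90 gene, was the most abundant member per length in both lines. In ML1 the order was HSP90AB1 at 631 CPM per kilobase, HSP90AA1 at 365, HSPA8 at 173, HSP90B1 at 141 and HSPD1 at 128. In U937 HSP90AB1 stood at 1810 CPM per kilobase, followed by HSPD1 at 462, HSPA8 at 420, HSP90AA1 at 289 and HSPB1 at 149. The 5 members with the highest CPM held 59.8% of the members' summed CPM in ML1 and 71.8% in U937, while 24 and 23 of the 88 members averaged under 1 CPM.

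Prexasertib in ML1 raised 24 members and lowered 12, with a median log2 fold change of 0.19 over the 78 tested, against 0.02 over all genes. The share of members higher was 30.8%, beside 25.3% of all tested genes, and the share lower was 15.4%, beside 23.5%. Stress-inducible HSP70 genes and ER chaperones were among the members that rose, and the mitochondrial chaperonin genes were among those that fell. In U937 prexasertib raised 10 members (12.8%, beside 18.3% of all genes) and lowered 8 (10.3%, beside 12.8%), with a median of 0.01. Without U937 prexasertib replicate 2 these counts were 6 and 2. The 10 include the antisense RNAs DNAJC9-AS1 and DNAJB5-AS1. DNAJB5-AS1 had 4 counts over the U937 diluent group, 0 over ML1 with diluent and 7 over ML1 with prexasertib. It thus passed the filter on low counts through treated U937 libraries, so its call is counted but is not a test. DESeq2 did not call it (DESeq2 adjusted p = 0.075). Called higher in both lines were 6 members, HSPA6, BAG3, DNAJB2, DNAJB4, DNAJB9 and DNAJC27. Called lower in both were 3, HSPD1, HSPB11 and DNAJC19, and no member was called in opposite directions. The 6 are 7.69% of the tested members, beside 9.86% of all genes called higher in both lines, and the 3 are 3.85%, beside 7.49% called lower in both. The DNAJB4 calls ended when single libraries were left out, with edgeR adjusted p up to 0.12 in ML1 (without diluent replicate 1) and 0.26 in U937 (without prexasertib replicate 2). Without that U937 library, HSPA6 was also not called there (edgeR adjusted p = 0.053), nor were any of the 3 lower members HSPD1, HSPB11 and DNAJC19 (edgeR adjusted p = 0.075, 0.078 and 0.11). Bulk RNA gives levels over whole cultures, so fewer cells of a type and less RNA per cell cannot be told apart.

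**Figure D1:**
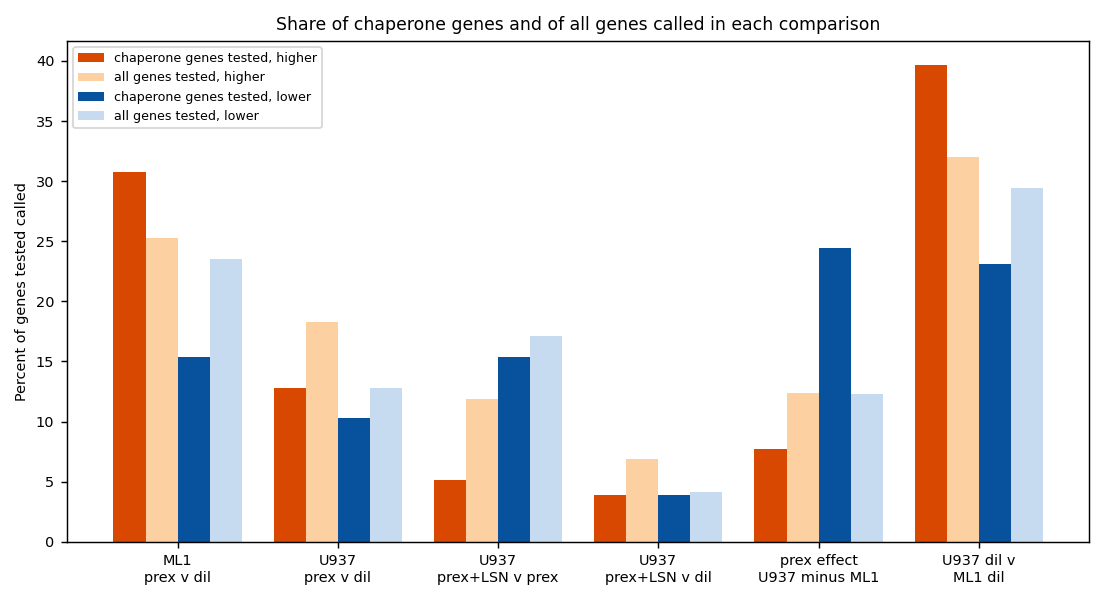
Percent of tested genes called higher (orange) or lower (blue) in each of the 6 comparisons, on a linear axis. Dark bars are the 78 tested members, antisense RNAs and pseudogenes included, and pale bars all 17243 genes. The dark and pale bars differ most for the difference between the lines, where 24.4% of members and 12.3% of all genes were lower.

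HSPA6, an HSP70 that is nearly silent without stress, showed the largest log2 fold change of the tested members in ML1. It lies on GRCh38 at chr1:161524540-161526910 in GENCODE. In ML1 its 3 diluent libraries held 1.32, 1.52 and 1.37 CPM and its 3 prexasertib libraries 46.3, 159 and 68 CPM. Every treated library was above every diluent library, replicate 2 most of all. The log2 fold change was 6.01 ± 0.49 (64.5-fold, edgeR adjusted p = 7.6e-08), and it was 5.32 without ML1 prexasertib replicate 2. In U937 HSPA6 went from 1.87, 3.33 and 2.48 CPM to 5.43, 12.1 and 6.17 CPM, again with no overlap. The change was 1.63 ± 0.42 (3.1-fold, edgeR adjusted p = 0.0095), and without U937 prexasertib replicate 2 it was 1.16 and no longer called (edgeR adjusted p = 0.053). The neighbouring gene HSPA7, annotated as an unprocessed pseudogene and close in sequence to HSPA6, so that its reads are uncertain, went from 0.662, 1.07 and 1.23 CPM to 10.3, 9.6 and 9.64 CPM in ML1. That rise of 3.32 ± 0.41 (edgeR adjusted p = 2.7e-06) had no called counterpart in U937, where the change was 0.28 ± 0.37.

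HSPA1A and HSPA1B encode the same major inducible HSP70 from near-identical genes at chr6:31815464-31817946 and chr6:31827735-31830255, so reads can be split between them. In ML1 HSPA1A held 3.57, 6.29 and 6.02 CPM with diluent and 34.5, 96.8 and 49.3 CPM with prexasertib. HSPA1B held 14.4, 54.3 and 47.9 CPM with diluent and 206, 370 and 298 CPM with prexasertib. Treated and untreated libraries did not overlap for either gene, although diluent replicate 1 was the lowest of its group in both. The changes were 3.51 ± 0.45 for HSPA1A (edgeR adjusted p = 1.2e-05) and 2.9 ± 0.57 for HSPA1B (edgeR adjusted p = 0.0011). With their counts summed, which removes the splitting, the change was 2.99 ± 0.54 (edgeR adjusted p = 0.00051). In U937 HSPA1A held 8.87, 23.3 and 14.2 CPM with diluent and 13.1, 28.4 and 19.8 CPM with prexasertib. Those ranges overlapped, and the summed pair changed by 0.32 ± 0.5 (edgeR adjusted p = 0.66). HSPA1L, the third gene of that locus and best known from testis, rose by 0.88 ± 0.23 in ML1 (edgeR adjusted p = 0.0041). HSPA2, another HSP70 with a testis role, was low in ML1 at 0.102, 0.0949 and 0.142 CPM with diluent and 0.701, 1.31 and 0.184 CPM with prexasertib. Its change of 2.7 ± 0.56 (edgeR adjusted p = 6e-04) was 1.96 without ML1 prexasertib replicate 2.

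Neither the constitutive cytosolic chaperones HSPA8 and HSP90AB1 nor the heat-inducible HSP90AA1, HSPH1, DNAJA1, DNAJB1 and HSPB1 were called higher in either line. HSPA8, the always-present HSP70, held 598, 1030 and 893 CPM in ML1 with diluent and 547, 698 and 722 CPM with prexasertib, overlapping ranges with a change of -0.36 ± 0.37 (edgeR adjusted p = 0.45). Its U937 change was -0.44 ± 0.37 (edgeR adjusted p = 0.38). HSP90AB1, the constitutive HSP90, changed by -0.04 ± 0.14 in ML1 and -0.36 ± 0.14 in U937 (edgeR adjusted p = 0.84 and 0.062). HSP90AA1, its more inducible paralog, fell in ML1 from 1980, 1980 and 1780 CPM to 1440, 1300 and 1260 CPM, with no overlap. That change of -0.52 ± 0.18 (edgeR adjusted p = 0.027) was no longer called without ML1 diluent replicate 1 or 2 or ML1 prexasertib replicate 2 or 3 (edgeR adjusted p = 0.066, 0.069, 0.053 and 0.081). HSPH1, the HSP110 exchange factor, changed by -0.36 ± 0.22 in ML1 and -0.18 ± 0.22 in U937, neither called. The J proteins DNAJA1 and DNAJB1, main partners of cytosolic HSP70, changed by 0.44 ± 0.25 and 0.55 ± 0.35 in ML1 and by 0.1 ± 0.25 and 0.35 ± 0.35 in U937, also not called. HSPB1, the small heat shock protein HSP27, changed by -0.24 ± 0.19 in ML1 and -0.19 ± 0.19 in U937, again with no call.

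BAG3, the exchange factor that directs HSP70 clients to selective autophagy, rose in both lines. In ML1 it went from 13.9, 16.4 and 14.2 CPM to 47.4, 60.7 and 53.9 CPM. In U937 it went from 14, 19.7 and 15 CPM to 29, 36.8 and 23.1 CPM. All treated libraries were above all diluent libraries of their line. The changes were 1.86 ± 0.18 in ML1 (edgeR adjusted p = 1.8e-07) and 0.87 ± 0.18 in U937 (edgeR adjusted p = 0.0019). HSF1 itself was not called in either line, at 108, 112 and 110 CPM with diluent and 99.2, 103 and 116 CPM with prexasertib in ML1. Its changes were -0.05 ± 0.1 in ML1 and 0.01 ± 0.1 in U937 (edgeR adjusted p = 0.69 and 0.94). Of 16 members listed from general knowledge as heat-inducible HSF1 targets, 5 were higher and 3 lower in ML1 (HSPA6, HSPA1A, HSPA1B, HSPA1L and BAG3 against HSPD1, HSPE1 and HSP90AA1), with a median of 0.03. Those shares, 31.2% and 18.8%, stood near the 25.3% and 23.5% of all genes. They depend on the list, which was chosen with earlier results of these data known. In U937 2 of the 16 were higher, HSPA6 and BAG3, and 2 lower, HSPD1 and SERPINH1, each 12.5% beside 18.3% and 12.8% of all genes, with a median of -0.17.

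**Figure D2:**
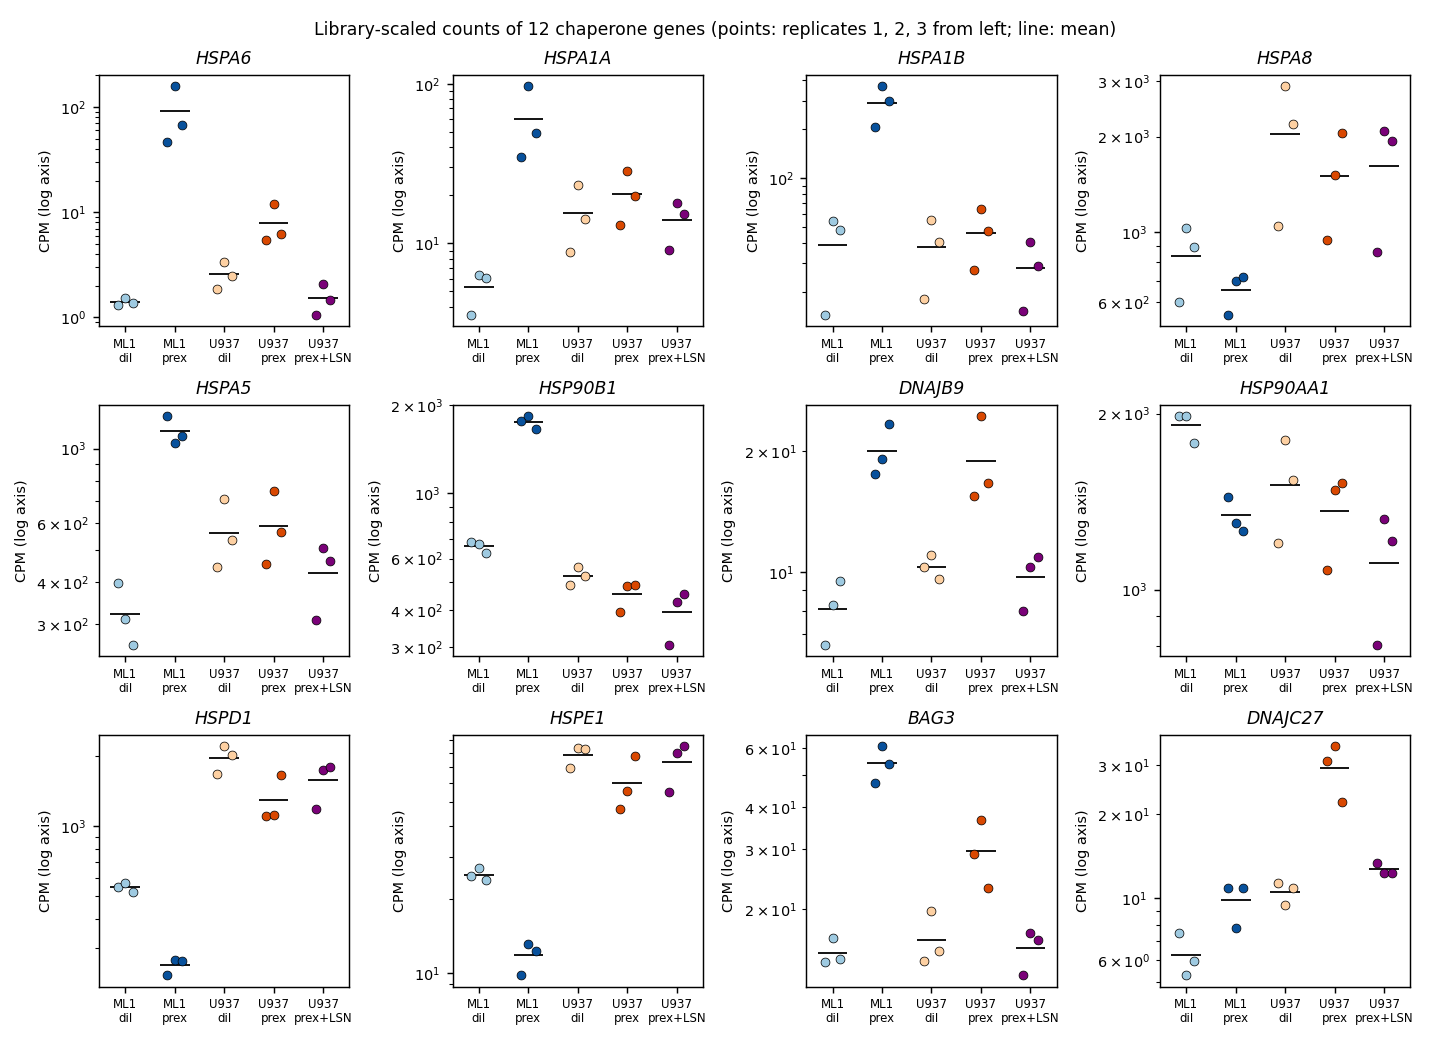
CPM on a log axis of 12 chaperone genes in the 5 groups (dil, diluent; prex, prexasertib; prex+LSN, prexasertib with LSN622666); points are replicates 1, 2 and 3 from left to right and lines are group means. HSPA6, HSPA1A, HSPA1B, HSPA5 and HSP90B1 separate ML1 with prexasertib from every other group, and DNAJC27 separates U937 with prexasertib.

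The main ER chaperones rose in ML1. Of the 9 listed, 5 were higher and none lower in ML1 (median 0.74), namely HSPA5, HSP90B1, DNAJB9, DNAJB11 and DNAJC3. The 5 are 55.6% of the list, beside 25.3% of all genes higher and 23.5% lower. That share depends on the list, which was chosen with earlier results of these data known. DNAJB12, an ER-membrane J protein not called in ML1, is not on it. In U937 1 was higher, DNAJB9, and 3 were lower, DNAJC1, DNAJC10 and SERPINH1 (median 0.07), or 11.1% and 33.3% beside 18.3% and 12.8% of all genes. The DNAJC1 call ended without U937 diluent replicate 1 (edgeR adjusted p = 0.055) and the DNAJC10 call without U937 prexasertib replicate 2 (edgeR adjusted p = 0.061). The summed level of the 9 went from 1330 ± 105 to 3360 ± 136 CPM in ML1 (mean ± SD, n = 3) and was 1560 ± 172 and 1470 ± 201 CPM in U937. HSPA5, the ER HSP70 known as BiP (chr9:125234853-125241330), held 397, 311 and 260 CPM in ML1 with diluent and 1250, 1040 and 1090 CPM with prexasertib. These ranges were well apart, with a change of 1.81 ± 0.22 (3.5-fold, edgeR adjusted p = 3e-06). In U937 HSPA5 held 445, 707 and 534 CPM with diluent and 453, 749 and 563 CPM with prexasertib, overlapping ranges with a change of 0.07 ± 0.22 (edgeR adjusted p = 0.84). HSP90B1, the ER HSP90 known as GRP94 (chr12:103930107-103953645), went from 684, 672 and 625 CPM to 1760, 1830 and 1650 CPM in ML1. Its change was 1.4 ± 0.14 (2.64-fold, edgeR adjusted p = 3.1e-07), and in U937 it was -0.21 ± 0.14 (edgeR adjusted p = 0.27), although all 3 treated U937 libraries lay below the diluent ones.

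Among the ER J proteins, DNAJB11, a BiP partner also called ERdj3, went from 90.9, 93 and 78.3 CPM to 141, 145 and 152 CPM in ML1, with no overlap, a change of 0.74 ± 0.14 (edgeR adjusted p = 0.00024). DNAJC3, an inhibitor of eIF2-alpha kinases also called p58IPK, rose in ML1 by 0.79 ± 0.13 (edgeR adjusted p = 7e-05). DNAJB9, also called ERdj4 and a partner of BiP at the sensor IRE1, rose in both lines. It went from 6.57, 8.27 and 9.47 CPM to 17.6, 19.2 and 23.4 CPM in ML1, and from 10.3, 11 and 9.62 CPM to 15.5, 24.5 and 16.7 CPM in U937. No treated library overlapped a diluent library of its line, and the changes were 1.31 ± 0.2 and 0.87 ± 0.19 (edgeR adjusted p = 2.5e-05 and 0.0033). SERPINH1, the collagen chaperone HSP47, was low in U937 at 4.19, 2.38 and 3.89 CPM with diluent and 2.35, 1.8 and 1.9 CPM with prexasertib. Its U937 fall of -0.79 ± 0.21 (edgeR adjusted p = 0.0087) was not called when only the groups compared were fitted (-0.77, edgeR adjusted p = 0.069) or without the 3 U937 replicate 1 libraries (-0.71, edgeR adjusted p = 0.052).

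The mitochondrial chaperonin fell in ML1. HSPD1, the HSP60 subunit, and HSPE1, its HSP10 lid, are neighbours on chromosome 2 on opposite strands. They share 281 exonic bases, 6.62% of the HSPD1 exons and 14.2% of the HSPE1 exons. The library kit does not mark strand, so those reads cannot be told apart. HSPE1 also shares 192 exonic bases (9.71%) on the same strand with HSPE1-MOB4, a member with 0 counts. How reads in shared bases were counted is not known, so the HSPE1 level may be incomplete. In ML1 HSPD1 went from 548, 568 and 519 CPM to 229, 265 and 262 CPM. HSPE1 went from 24.9, 27 and 24 CPM to 9.79, 13.1 and 12.3 CPM. Neither gene's groups overlapped, and the change was -1.11 ± 0.18 for both (edgeR adjusted p = 5.3e-05 and 7.9e-05). In U937 HSPD1 went from 1670, 2200 and 2020 CPM to 1110, 1120 and 1660 CPM. That change of -0.6 ± 0.18 (edgeR adjusted p = 0.017) was not called without U937 diluent replicate 2, U937 prexasertib replicate 1 or U937 prexasertib replicate 2 (edgeR adjusted p = 0.053, 0.053 and 0.075). HSPE1 in U937 changed by -0.39 ± 0.18 (edgeR adjusted p = 0.11). HSPA9, the mitochondrial HSP70 mortalin, was not called in either line, at 0.03 ± 0.12 and -0.19 ± 0.12. Of 8 mitochondrial members, 4 were lower and 1 higher in ML1, and 3 were lower and none higher in U937. The lower shares were 50% beside 23.5% of all genes in ML1 and 37.5% beside 12.8% in U937. They depend on the list of 8, also chosen with earlier results of these data known. The U937 count shrinks to HSPD1 alone without the 3 U937 replicate 1 libraries, as the calls for DNAJC15 and DNAJC19, both linked to the inner membrane import motor, then had edgeR adjusted p = 0.075 and 0.12. Without U937 prexasertib replicate 2 alone these were 0.053 and 0.11, and the DNAJC19 call also ended without U937 diluent replicate 1 or 3 (0.064 and 0.052).

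Other J proteins and an HSP70 relative followed. DNAJB2, a J protein with ubiquitin-interacting motifs that is abundant in neurons, went from 5.11, 5.92 and 4.96 CPM to 27.6, 31.8 and 31.4 CPM in ML1. In U937 it went from 11.8, 17.4 and 14.8 CPM to 23.2, 30.1 and 22.8 CPM, and in neither line did the groups overlap. The changes were 2.5 ± 0.19 and 0.79 ± 0.18 (edgeR adjusted p = 7.1e-09 and 0.0035). DNAJB5 rose in ML1 by 2.06 ± 0.25 (2.89, 4.68 and 3.59 to 15.9, 9.85 and 20.9 CPM, edgeR adjusted p = 2.4e-06) and changed by -0.05 ± 0.24 in U937. DNAJC27, a J protein that also carries a Rab-like GTPase domain, rose in both lines. In U937 it went from 11.3, 9.41 and 10.9 CPM to 31, 34.9 and 22.1 CPM, and in ML1 from 7.5, 5.3 and 5.97 CPM to 10.9, 7.79 and 10.9 CPM. The changes were 1.48 ± 0.19 and 0.66 ± 0.19 (edgeR adjusted p = 3.2e-05 and 0.0073). DNAJC9, a J protein that is also a histone chaperone, fell in ML1 from 141, 161 and 144 CPM to 74.3, 85.3 and 92.4 CPM (-0.82 ± 0.16, edgeR adjusted p = 0.00041) and was not called in U937 (0.11 ± 0.16). Its exons overlap genes on the other strand over part of their length, FAM149B1 among them, and those reads cannot be told apart. HSPA12B, a distant HSP70 relative linked to endothelium, fell in ML1 from 10.6, 10.2 and 6.64 CPM to 2.99, 4.42 and 3.7 CPM (-1.31 ± 0.22, edgeR adjusted p = 8.4e-05), all treated libraries below all diluent ones.

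Among the small heat shock proteins the changes were in lowly expressed or atypical members. HSPB11, which serves as the intraflagellar transport protein IFT25, fell in ML1 from 25.6, 29.4 and 29.5 CPM to 10.1, 12.8 and 11.3 CPM, with no overlap (-1.31 ± 0.17, edgeR adjusted p = 3.9e-06). HSPB9, a testis-type member, rose in ML1 from 0.407, 0.261 and 0.604 CPM to 4.35, 1.1 and 3.77 CPM (2.87 ± 0.5, edgeR adjusted p = 0.00013). HSPB8, which works with BAG3 in autophagy of misfolded proteins, had 0 counts in the U937 diluent libraries and 0.412, 1.73 and 0.527 CPM with prexasertib. That was 177 counts over the prexasertib group, at least 50.8-fold higher than a floor of 3 counts over the diluent group. HSPB8 passed the filter on low counts only through that group, so its call is not a test, although the counts of called members include it. In the combination group 2 counts were found, and all ML1 libraries had 0. HSPB7 likewise passed only through ML1 with prexasertib, at 25, 24 and 20 counts beside 2, 8 and 1 with diluent. Its call as higher in ML1 is counted but is not a test either. HSPB7 is also counted as lower in untreated U937, on 0 counts over the group against 11 in ML1.

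The prexasertib effect differed between the lines for 25 members, with a smaller log2 fold change in U937 for 19 and a larger one for 6. The 19 are 24.4% of the tested members, beside 12.3% of all genes, and the 6 are 7.69%, beside 12.4%. The median difference was -0.13, against 0.03 over all genes. HSPA6 differed by -4.38 ± 0.6 (edgeR adjusted p = 6.7e-05), and by -3.67 without ML1 prexasertib replicate 2. HSPA1A differed by -3.1 ± 0.6 (edgeR adjusted p = 0.0013), and the summed HSPA1A and HSPA1B counts by -2.67 ± 0.72 (edgeR adjusted p = 0.017). Of the 9 ER chaperones, 7 differed, all with the lower value in U937, and of these HSPA5, HSP90B1 and DNAJC10 did so in every alternative. HSPA5 differed by -1.74 ± 0.31 and HSP90B1 by -1.61 ± 0.2 (edgeR adjusted p = 0.00041 and 1.1e-05). BAG3, called in both lines, still differed by -1 ± 0.25 (edgeR adjusted p = 0.0067). DNAJB9 did not pass, at -0.44 ± 0.27 (edgeR adjusted p = 0.27), nor did HSPD1, at 0.51 ± 0.25 (edgeR adjusted p = 0.15). The 6 larger values were those of HSPA14, HSPE1, HSPB11, DNAJC9, DNAJC22 and DNAJC27. The DNAJC27 difference of 0.82 ± 0.26 (edgeR adjusted p = 0.03) ended as a call without ML1 diluent replicate 1, ML1 prexasertib replicate 2, U937 diluent replicate 2 or 3, or U937 prexasertib replicate 1 or 2 (edgeR adjusted p from 0.06 to 0.089). The count of 6 was 3 without U937 diluent replicate 2, U937 diluent replicate 3 or U937 prexasertib replicate 1.

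**Figure D3:**
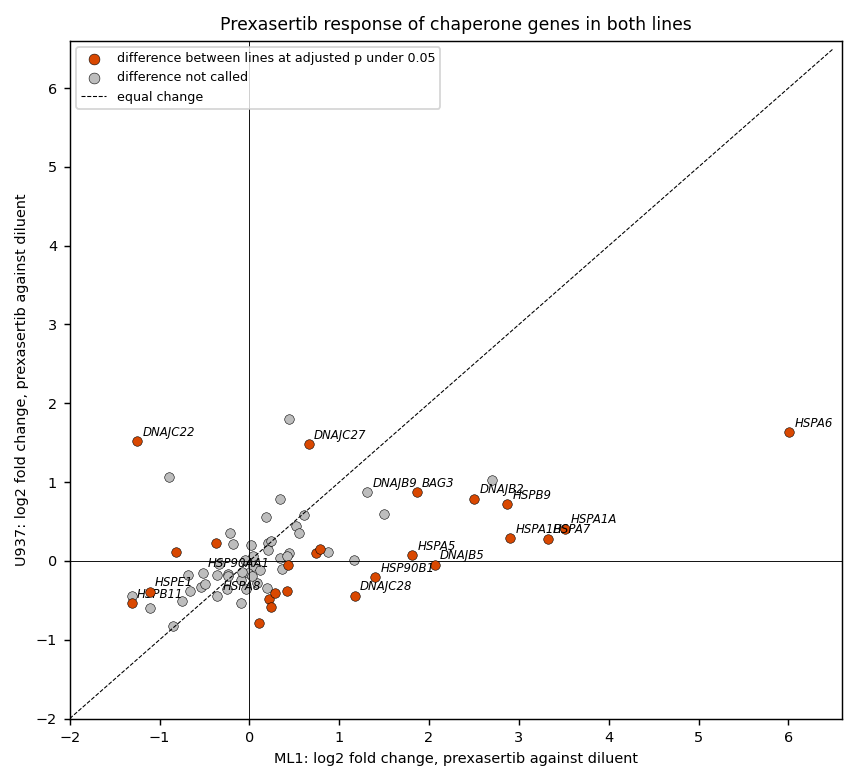
Log2 fold change with prexasertib in ML1 (x axis) and U937 (y axis) for 74 tested members. The 4 with no counts in a group are not drawn. Orange points are the 25 genes whose change differed between the lines, most of them below the dashed line of equal change.

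Adding LSN622666 to prexasertib in U937 lowered 12 members (15.4%, beside 17.1% of all genes) and raised 4 (5.13%, beside 11.9%) against prexasertib alone. Same-numbered libraries of these groups deviated together, and with the replicate number as a block 24 were lower and 8 higher. Over all genes the block gave 3830 lower and 3239 higher, in place of 2947 and 2048. The comparison shares the prexasertib libraries with the comparison of prexasertib against diluent, so the values are set side by side only. HSPA6 went from 5.43, 12.1 and 6.17 CPM with prexasertib to 1.06, 2.08 and 1.46 CPM with the combination. The groups did not overlap, with a change of -2.36 ± 0.43 (edgeR adjusted p = 0.001). BAG3 went to 12.7, 16.9 and 16.2 CPM, below every library with prexasertib alone, a change of -0.96 ± 0.18 (edgeR adjusted p = 0.00085). DNAJB9 went to 7.98, 10.3 and 10.9 CPM (-0.96 ± 0.19, edgeR adjusted p = 0.0016). DNAJC27 went to 13.3, 12.3 and 12.3 CPM (-1.21 ± 0.19, edgeR adjusted p = 0.00019). Both were below all libraries with prexasertib alone. Against diluent the same 4 genes had combination changes of -0.73 ± 0.44, -0.09 ± 0.18, -0.08 ± 0.19 and 0.26 ± 0.18, none of them called.

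HSPA13 and HSPA14, an ER-lumenal HSP70-like ATPase and a ribosome-associated HSP70, were lower with the combination than with prexasertib alone. Neither had been called for prexasertib against diluent in U937. HSPA14 went from 110, 141 and 120 CPM to 64.7, 92.1 and 78.6 CPM (-0.66 ± 0.13, edgeR adjusted p = 0.0014). HSPA13 went from 57.5, 57.4 and 48.4 CPM to 32.7, 39.5 and 37 CPM (-0.58 ± 0.11, edgeR adjusted p = 0.00095). DNAJB12, an ER-membrane J protein, was lower by 0.43 on the log2 scale (-0.43 ± 0.11, edgeR adjusted p = 0.0072). Higher with the combination were HSPA12B, SERPINH1, DNAJC4 and HSF1. HSPA12B went from 3.99, 2.95 and 3.73 CPM to 11.3, 8.75 and 8.01 CPM (1.39 ± 0.22, edgeR adjusted p = 0.00023), with no overlap. SERPINH1 went from 2.35, 1.8 and 1.9 CPM to 3.72, 3.09 and 3.91 CPM (0.83 ± 0.2, edgeR adjusted p = 0.0061). HSF1 went from 106, 110 and 106 CPM to 125, 138 and 129 CPM (0.28 ± 0.1, edgeR adjusted p = 0.041). The HSF1 groups did not overlap, but its call ended when any of 5 libraries was left out: prexasertib replicate 1, 2 or 3 (edgeR adjusted p = 0.08, 0.063 and 0.077) or combination replicate 2 or 3 (0.13 and 0.088). With the block it was called (0.28 ± 0.08, edgeR adjusted p = 0.015).

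In that comparison the replicate block added calls over all genes, and among cytosolic and ER chaperones too. HSPA1A changed by -0.52 ± 0.15, HSPA1B by -0.74 ± 0.17, DNAJB1 by -0.64 ± 0.12 and DNAJA1 by -0.34 ± 0.1 (edgeR adjusted p = 0.0096, 0.0022, 0.00062 and 0.011 with the block). Without it the values were close but not called, at -0.54 ± 0.41, -0.71 ± 0.54, -0.61 ± 0.35 and -0.33 ± 0.25. HSPA5 changed by -0.46 ± 0.11, HSP90AA1 by -0.31 ± 0.1 and DNAJB11 by -0.27 ± 0.1 with the block (edgeR adjusted p = 0.0026, 0.021 and 0.04), while HSPE1 was higher by 0.29 ± 0.11 (edgeR adjusted p = 0.049). In each of HSPA1A, HSPA1B, DNAJB1 and DNAJA1 the combination library was below the same-numbered prexasertib library in all 3 pairs.

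Against diluent, 3 members were called higher with the combination (3.85%, beside 6.88% of all genes) and 3 lower (3.85%, beside 4.11%). The higher ones were HSPA12B, DNAJB13 and DNAJC22 and the lower ones HSPA13, HSPA14 and DNAJC1. None of the 6 calls held in every alternative. DESeq2 called 6 higher and 9 lower, beside 1623 and 1381 of all genes. With a replicate block 9 and 19 were called, beside 2218 and 2065 of all genes. The same-number correlations of these groups were not all above 0.1. Leaving out combination replicate 1 gave 0 and 0, diluent replicate 1 gave 5 and 1, diluent replicate 2 or 3 gave 1 and 1, and without combination replicate 3 there was 1 lower call. HSPA12B was at 5.32, 4.7 and 4.6 CPM with diluent, and its change was 0.94 ± 0.22 (edgeR adjusted p = 0.011), with edgeR adjusted p = 0.059, 0.06 and 0.083 without diluent replicate 2, diluent replicate 3 and combination replicate 1.

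In U937 many members varied with the replicate number. Replicate 1 was the lowest library of its group in all 3 U937 groups for 32 of the 78 members (41%), against 12.9% of all tested genes. HSPA8 held 1040, 2890 and 2190 CPM in the diluent group, 941, 1510 and 2050 CPM in the prexasertib group and 862, 2080 and 1930 CPM in the combination group. HSPH1 held 179, 349 and 277, then 186, 255 and 271, then 172, 288 and 255 CPM in the same order. DNAJB1 held 78.2, 158 and 133, then 115, 200 and 156, then 65.1, 131 and 112 CPM. The spread between the numbered libraries was thus wider than the gap between the groups' means for HSPA8 and HSPH1. In ML1 replicate 1 was lowest in both groups for 24 members (30.8%), against 19.3% of all genes. The labels do not say what a replicate number stands for. Without the 3 U937 replicate 1 libraries, the members lower with prexasertib in U937 numbered 3 in place of 8.

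**Figure D4:**
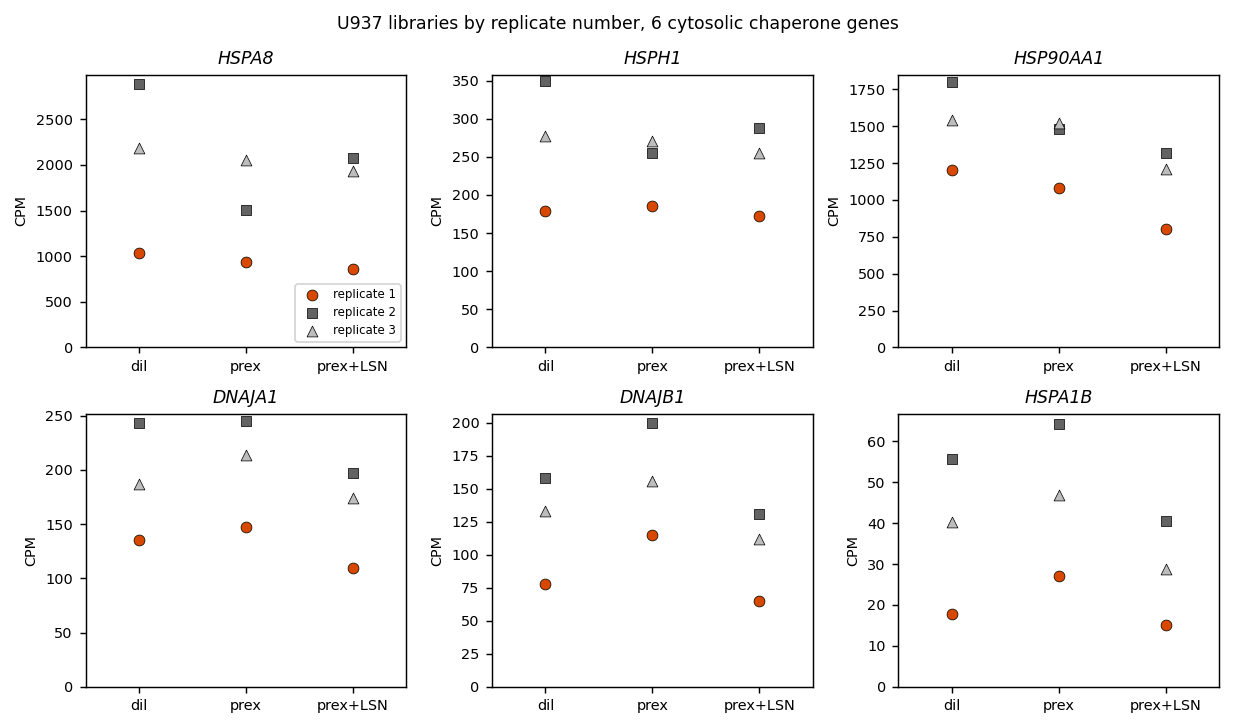
CPM on linear axes from 0 of 6 cytosolic chaperone genes in the U937 libraries by treatment, with replicate 1 as orange circles, replicate 2 as dark squares and replicate 3 as pale triangles. Replicate 1 is the lowest library in every group for each of the 6 genes.

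Between the untreated lines, 31 members were higher in U937 (39.7%, beside 32.0% of all genes) and 18 lower (23.1%, beside 29.4%), with a median of 0.1. In either direction 61.4% of all genes were called. HSP90AB1 was at 1980, 1940 and 1730 CPM in ML1 and 5060, 5840 and 5310 CPM in U937, far apart (1.52 ± 0.15, edgeR adjusted p = 6.1e-08). HSPD1 was higher in U937 by 1.85 ± 0.18 and HSPE1 by 1.63 ± 0.18 (edgeR adjusted p = 8.3e-08 and 4.8e-07). HSPA4L, an HSP110-type protein, was at 4.87, 4.46 and 3.85 CPM in ML1 and 34.3, 44.9 and 42.1 CPM in U937 (3.2 ± 0.25, edgeR adjusted p = 4.5e-09). HSPB1 was higher by 1.23 ± 0.19 (edgeR adjusted p = 2.3e-05). SERPINH1 was at 46.2, 57.1 and 48.8 CPM in ML1 and 4.19, 2.38 and 3.89 CPM in U937 (-3.86 ± 0.21, edgeR adjusted p = 2.9e-11). DNAJC22 was far lower in U937 (-6.9 on the log2 scale), at 3.19, 2.53 and 3.25 CPM in ML1 against 0.0286, 0.036 and 0 CPM in U937. It passed the filter on low counts through its ML1 libraries, where it is high. Its call as lower is counted but is not a test. HSPA12A had 0 counts in the ML1 diluent libraries and 85 over the U937 diluent group, at least 32.8-fold higher than a floor of 3 counts over the group. With 0 counts in ML1 with prexasertib too, it passed the same filter through U937 libraries, so a call for it is not a test either. HSF1, BAG3 and DNAJA1 were not called between the lines, at -0.05 ± 0.1, 0.13 ± 0.18 and -0.08 ± 0.25.

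Beyond the members, 45 co-chaperones and partner genes were listed from general knowledge, of which 44 were tested. This list too was chosen with earlier results of these data known, and its shares depend on it. Prexasertib raised 8 (18.2%, beside 25.3% of all genes) and lowered 22 (50%, beside 23.5%) of them in ML1, with a median of -0.32. In U937 it raised 1 (2.27%, beside 18.3%) and lowered 13 (29.5%, beside 12.8%), with a median of -0.32. FKBP5, an HSP90 co-chaperone of steroid receptors, fell by 1.43 on the log2 scale in ML1 (143, 120 and 121 to 48.9, 45.6 and 47.9 CPM) and by 0.58 in U937 (edgeR adjusted p = 1.4e-07 and 0.0042). The cytosolic chaperonin TRiC fell in ML1, where 7 of its 8 subunit genes were called lower, from -0.52 for CCT3 and CCT4 to -0.7 for CCT2 and CCT5. The eighth, CCT8, changed by -0.14 ± 0.13 (edgeR adjusted p = 0.41). In U937 CCT4 alone of the 8 was called lower (-0.41 ± 0.14, edgeR adjusted p = 0.03). PDIA4 and HYOU1, an ER disulfide isomerase and an ER HSP70-like exchange factor, rose in ML1 by 1.01 ± 0.15 and 0.95 ± 0.15, and both differed between the lines, by -1.56 ± 0.21 and -1.34 ± 0.21 (edgeR adjusted p = 2.7e-05 and 0.00011). HSF4, a heat shock factor, was higher with the combination than with prexasertib, at 8.64, 5.2 and 5.31 CPM against 21, 16.1 and 16.6 CPM (1.49 ± 0.18, edgeR adjusted p = 3.7e-05).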

How the data were processed

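The 15 libraries were grouped by the labels and none was left out. The authors deposited raw counts per gene symbol. Per the submitters' processing notes TopHat2 2.0.14, Bowtie2 2.2.6 and featureCounts 1.4.6 were used with hg38, while the sources used here do not give the annotation or the strand setting. Per the labels' protocols the TruSeq RNA Library Prep Kit v2 was used. In R 4.3.3, edgeR 4.0.16 with filterByExpr and TMM scaling fitted 1 mean per group over all 15 libraries (10 residual degrees of freedom), tested 17243 genes with the robust quasi-likelihood method, and adjusted p-values over all of them. The members and lists were chosen with earlier results of these data known. Named genes were a fixed list of 21 plus up to 8 members each way per comparison with the largest called change, at least 1 CPM on average and no overlap between groups, and up to 4 partner genes with the smallest p. A partner gene that met this rule is not reported here, while list counts include it. Others, chosen after their values were seen, are HSPB8, HSPA1L, HSPA12A, DNAJB5-AS1 and the CCT genes other than CCT4. Of the members 86 matched GENCODE v29 for exon lengths. Counting floors of 3 counts cover counting error only. Same-numbered libraries deviated together between the combination and prexasertib groups (r = 0.409, 0.37 and 0.384, all above 0.1), and not in every pair of the other groups. Alternatives were DESeq2 1.42.0, other scalings, filters, a replicate block, fewer groups, summed HSPA1A and HSPA1B counts, and each library left out. Omitting the 3 U937 replicate 1 libraries was added after seeing the data. The fit was tested on simulated data.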

Additional observations from a re-analysis of the deposited data

Results flagged for a closer look

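For 25 members the log2 fold change with prexasertib differed between U937 and ML1 (edgeR's quasi-likelihood test of the interaction, adjusted over all genes). Each value below is U937 minus ML1. Among HSP70 genes the difference was -4.38 for HSPA6, -3.1 for HSPA1A, -3.04 for HSPA7, -2.62 for HSPA1B, -1.74 for HSPA5 and 0.61 for HSPA14. For HSP90B1 it was -1.61, for BAG3 -1 and for SERPINH1 -0.9. In the DNAJB genes it was -2.11 for DNAJB5, -1.71 for DNAJB2 and -0.64 for DNAJB11. In the DNAJC genes it was -1.6 for DNAJC28, -0.83 for DNAJC15, -0.8 for DNAJC30, -0.7 for DNAJC1, -0.69 for DNAJC10, -0.64 for DNAJC3 and -0.48 for DNAJC13, and on the other side 0.82 for DNAJC27, 0.93 for DNAJC9 and 2.77 for DNAJC22. For the chaperonin lid HSPE1 it was 0.72, and for the small heat shock genes HSPB11 and HSPB9 it was 0.77 and -2.15. Of the 25 calls, 11 held in every alternative, those of HSPA6, HSPA1A, HSPA7, HSPA5, HSP90B1, BAG3, DNAJB2, DNAJB5, DNAJC9, DNAJC10 and DNAJC15. The HSPA1B difference was not called without ML1 prexasertib replicate 2 (-2.37, adjusted p = 0.06), without U937 diluent replicate 2 (-2.26, adjusted p = 0.066) or without a low-count filter (-2.62, adjusted p = 0.059). DNAJC22 was near 0 CPM in U937 throughout, and its difference was 2.15 without U937 prexasertib replicate 1 (adjusted p = 0.095).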

How the results depend on the processing

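No member changed sign with a call under any alternative. Over 6821 member values, 254 lost a call and 165 gained one. The calls that held in every alternative numbered 26 of 36 for prexasertib in ML1, 5 of 18 in U937, 10 of 16 for the combination against prexasertib, 0 of 6 against diluent, and 42 of 49 between the untreated lines. Counts below are members higher, then lower. With each library left out, prexasertib gave 18 to 24 and 9 to 12 in ML1 and 6 to 10 and 2 to 10 in U937. The combination gave 3 to 6 and 8 to 13 against prexasertib and 0 to 5 and 0 to 2 against diluent. The difference between lines gave 3 to 6 and 14 to 18, and the untreated lines 29 to 31 and 15 to 18. With the replicate block, the combination against prexasertib gave 8 and 24, against diluent 9 and 19, prexasertib in U937 17 lower, and the difference 10 higher. Over all genes the block gave, in the same order, 3239 and 3830, 2218 and 2065, 3682 lower, and 3015 higher. The block moved no other count by over 1.5 times. Only for the combination and prexasertib groups were all same-number correlations above 0.1. In U937 they were 0.317, 0.102 and 0.0621 for diluent with prexasertib, and 0.386, 0.268 and 0.0477 for diluent with the combination. The labels do not say whether a shared number marks a pair. The main U937 fits may thus miss calls that a block would make. With only the groups compared, prexasertib in U937 gave 3 lower and the combination against diluent 1 higher. Without the 3 U937 replicate 1 libraries these were 3 lower for prexasertib and 1 and 0 for the combination against diluent. For that last comparison, DESeq2 gave 6 and 9, DESeq2 size factors in edgeR 5 lower, upper-quartile factors 5 and 0, no low-count filter 1 lower and the stricter filter 0 lower. Upper-quartile factors moved the median of all genes there from 0.001 to 0.106. The cause was not tested. Members under 1 CPM rest on few counts, which limits their precision.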
